A study of Homo sapiens with 9 samples.

Results

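The clustered protocadherins are adhesion genes of 3 families, alpha, beta and gamma, that lie side by side on chromosome 5. Members were chosen by a symbol starting with PCDHA, PCDHB or PCDHG and by the presence of a read in any of 9 RNA-seq libraries, so detection itself is not a result. All 53 such genes among the 19984 protein-coding genes measured met the rule, with 15 alpha, 16 beta and 22 gamma members. *PCDHB1* was just inside the limit, with 2 reads in 1 del-4 library, and no gene of these symbols lay outside it. The mean normalized count was at least 10 in 48 members. In GRCh38 the cluster spans chr5:140786136-141512977, with all members on the plus strand.

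Clustered protocadherins are cadherin-type surface proteins best known from neurons, where each cell uses its own combination of members and matching combinations recognise each other. Each alpha or gamma member has its own promoter and a large variable first exon, which is spliced to constant exons shared by the whole family, whereas beta members have no constant exons. Promoter choice is known to depend on *CTCF*, cohesin, distal enhancers and DNA methylation, and many of the promoters share an element with the letters CGCT.

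The libraries came from LNCaP, an established prostate cancer cell line of luminal character. Clones del-4 and del-56, with the genotype *EPCART* knockout, were made by CRISPR-Cas9 deletion of the promoter and first exons of the long noncoding RNA gene *EPCART*, and the control was a wild-type (WT) LNCaP clone. Each group was 1 clone with 3 libraries from cells grown for 48 h in the same medium, so the effect of the deletion and of the clone cannot be told apart. *EPCART* itself was not analysed here. Each library held between 91074556 and 118877134 reads on genes.

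RefSeq promoters (GRCh38.p14) were found for 47 of the 53 members. In the 100 bases before the start, CGCT on the strand of the gene was present in 44 of them (93.6%), against 28.1% of 35116 promoters of all genes. On the opposite strand of the same window it was found in 12 members (25.5%) and 28.4% of all promoters. The families were unlike in this, with 0 of 13 alpha, 1 of 14 beta (7.14%) and 11 of 20 gamma members (55%). *PCDHA9*, *PCDHB8* and *PCDHGB2* were the members with a promoter entry but without these letters in the window. The following sequences are the 100 bases before the start of 7 members whose counts or segments differed between clones, with each CGCT in capitals. These letters occur 1 time before *PCDHB5* and several times before *PCDHGB5*. Only the 4 letters were matched, and whether each match belongs to the shared element was not tested.

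PCDHB2 (chr5:141094515-141094614, plus strand): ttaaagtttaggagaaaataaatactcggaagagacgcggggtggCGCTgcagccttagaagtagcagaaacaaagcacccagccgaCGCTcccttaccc
PCDHB4 (chr5:141121718-141121817, plus strand): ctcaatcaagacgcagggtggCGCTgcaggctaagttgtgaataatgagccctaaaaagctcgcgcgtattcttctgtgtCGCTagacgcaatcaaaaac
PCDHB5 (chr5:141135106-141135205, plus strand): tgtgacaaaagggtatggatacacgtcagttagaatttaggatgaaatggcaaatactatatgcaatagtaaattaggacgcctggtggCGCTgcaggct
PCDHGA1 (chr5:141330414-141330513, plus strand): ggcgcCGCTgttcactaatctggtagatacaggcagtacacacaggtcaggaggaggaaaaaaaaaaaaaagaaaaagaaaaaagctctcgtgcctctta
PCDHGA8 (chr5:141392533-141392632, plus strand): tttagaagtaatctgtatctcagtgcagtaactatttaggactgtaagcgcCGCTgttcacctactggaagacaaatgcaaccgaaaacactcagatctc
PCDHGB5 (chr5:141397847-141397946, plus strand): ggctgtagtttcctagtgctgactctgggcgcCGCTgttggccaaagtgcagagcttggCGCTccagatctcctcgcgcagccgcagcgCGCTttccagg
PCDHGC3 (chr5:141475866-141475965, plus strand): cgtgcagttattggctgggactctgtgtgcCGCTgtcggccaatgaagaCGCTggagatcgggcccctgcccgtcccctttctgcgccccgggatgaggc

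The beta member *PCDHB5*, a single-exon adhesion gene, was higher in both deletion clones. It had the highest normalized count per kilobase of exon among the beta members of every clone. Its normalized counts were 1819, 1864 and 1870.2 in the WT libraries, 2842, 2931 and 2898 with del-4, and 2959.7, 2605 and 2819 with del-56. All 6 deletion libraries lay above all WT libraries. By limma with Benjamini-Hochberg adjustment over all genes tested, the log2 fold change of del-4 over WT was 0.64 (SE 0.0505), at an adjusted p = 1.36e-08. For del-56 it was 0.59 (SE 0.0582), at an adjusted p = 8.02e-07. Both comparisons use the same WT libraries and are not independent. *PCDHB5* made up 45.0% ± 1.03 of the beta family count of WT, 55.3% ± 1.26 of that of del-4 and 52.8% ± 0.844 of that of del-56 (SD, n = 3 each).

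*PCDHB5* was the only 1 of 15 beta members tested that was called in del-4, a call being an adjusted p under 0.05. Of all genes tested in that comparison, 20.5% were called higher and 20.2% lower. No beta member was called lower in del-4 by limma, edgeR or DESeq2, and 0 had an unadjusted p under 0.05 in that direction. The summed normalized count of the 15 beta members other than *PCDHB5* was 2339.96 ± 105 with del-4, 2507 ± 238 with del-56 and 2266 ± 109 with WT (SD, n = 3 each), with overlapping ranges. The median log2 fold change of the beta members tested was 0.058 for del-4, where it was -0.0028 for all genes. When libraries were rescaled to the same total the beta median was -0.012, where that of all genes was -0.073.

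Clone del-56 differed from WT in 5 beta members, with *PCDHB2*, *PCDHB5* and *PCDHB6* higher and *PCDHB4* and *PCDHB8* lower, where 19.2% of all genes tested were called higher and 20.5% lower. The median log2 fold change of the 15 beta members tested was -0.26 for del-56, with 10 below 0. That of all genes was -0.0011. *PCDHB2*, the beta member with the second highest count, had 1561, 1411 and 1508 normalized counts with del-56, 1103, 1182 and 1138 with del-4, and 1046, 1134 and 1110.4 with WT. The del-56 libraries lay above the other 6, and those of del-4 and WT overlapped. Against WT its log2 fold change was 0.44 (SE 0.0708, limma adjusted p = 0.000112) for del-56 and 0.058 (SE 0.0716, limma adjusted p = 0.566) for del-4.

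*PCDHB6* was a low member, with 56.3, 35.1 and 37.6 normalized counts with del-56, 36.5, 12.0 and 19.1 with del-4, and 12.6, 8.69 and 13.2 with WT. The del-56 libraries lay above WT by a log2 fold change of 1.81 (SE 0.414, limma adjusted p = 0.00237), and del-4, at 0.80 (limma adjusted p = 0.236), overlapped WT. *PCDHB4* had 31.5, 47.2 and 19.4 normalized counts with del-56, 95.1, 65.7 and 100.4 with del-4, and 50.3, 88.8 and 81.1 with WT. Its del-56 libraries were the lowest 3 of the 9, with a log2 fold change from WT of -1.19 (SE 0.364, limma adjusted p = 0.0161). *PCDHB8* had 75.4, 64.3 and 89.7 normalized counts with del-56, 83.6, 94.6 and 103.5 with del-4, and 131, 114 and 124 with WT. Neither deletion clone overlapped WT, and the log2 fold change was -0.69 (SE 0.226, limma adjusted p = 0.0227) for del-56 and -0.39 (SE 0.211, limma adjusted p = 0.153) for del-4. The call of *PCDHB4* was lost without del-56 replicate 3 (limma adjusted p = 0.0727), WT replicate 2 (0.0855) or WT replicate 3 (0.0715). That of *PCDHB8* was lost without del-56 replicate 2 (limma adjusted p = 0.084), WT replicate 1 (0.0687) or WT replicate 3 (0.0642).

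**Figure D1:**
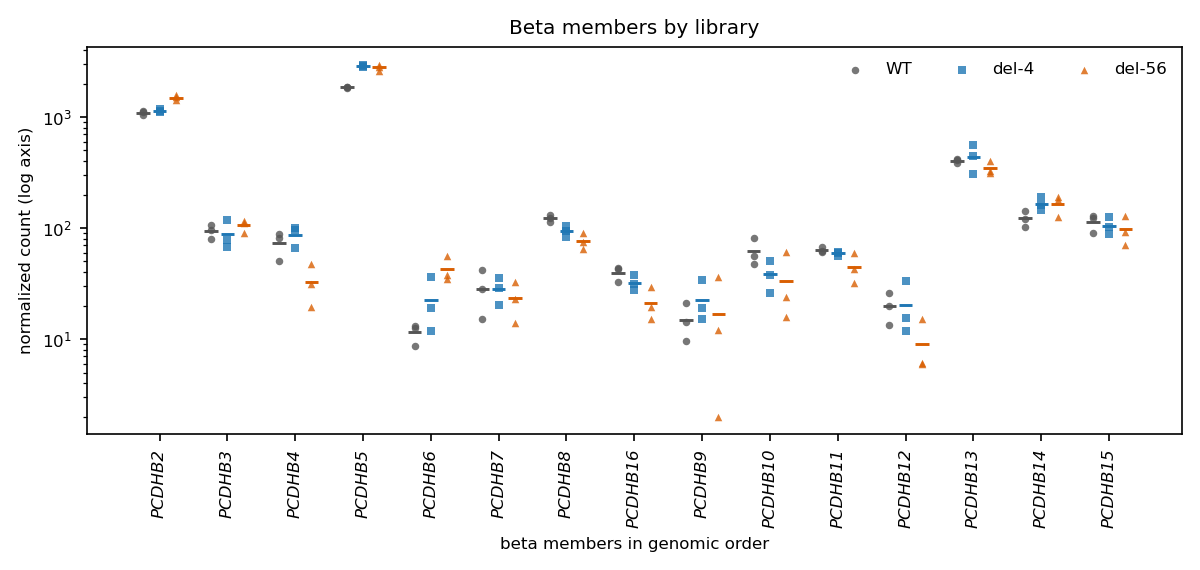
Normalized count (log axis) of each beta member in genomic order, with points for libraries and bars for the mean of the 3 libraries of a clone. *PCDHB1*, with reads in 1 library, is not drawn. *PCDHB5* is higher in both deletion clones (means 2890.3 and 2795) than in WT (1851), *PCDHB2* is higher in del-56, and *PCDHB4* is lower in del-56.

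The other beta members were not called against WT in either clone, and among those other than *PCDHB1* the mean normalized count in WT ran from 15.0 for *PCDHB9* to 402 for *PCDHB13*. *PCDHB14* had 145, 192 and 161 normalized counts with del-4, 189, 126 and 179 with del-56, and 122, 143 and 102 with WT. Its log2 fold changes were 0.44 and 0.42 (limma adjusted p = 0.0898 and 0.142). *PCDHB10* (-1.04, limma adjusted p = 0.0671) and *PCDHB16* (-0.90, limma adjusted p = 0.0747) were nearest to the threshold for del-56. The span of ENSG00000279983, on the same strand, overlaps *PCDHB14* and *PCDHB15*, which may share reads with it. Beta members resemble each other, and how reads with several alignments were counted is not given in the sources used here. Per kilobase of exon, the mean normalized counts of WT were 543 for *PCDHB5*, 268 for *PCDHB2* and 79.5 for *PCDHB13*, and those of del-56 were 820, 364 and 68.1.

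Gamma and alpha counts are nested and need a different reading. From each gamma member to the next in genomic order the deposited count never increased, in 189 of 189 comparisons over the 9 libraries. Between alpha members it did not increase in 125 of 126, and the exception was 1 read. Gene spans of these families end at the shared constant exons, so a member's count also holds the reads of the members after it. The gamma constant exons of GRCh38 lie at chr5:141494807-141494865, chr5:141505393-141505481 and chr5:141510947-141512975.

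All 22 gamma members were called lower in del-4, where 20.2% of all genes tested were. Their deposited log2 fold changes ran from -0.44 to -0.36. As the counts are nested, these are not 22 separate measurements. *PCDHGA1*, whose span covers the whole gamma locus, had 6448, 6405 and 6637 normalized counts with del-4, 8540.4, 7451 and 7556 with del-56, and 8644, 8467 and 8201 with WT. The del-4 libraries lay below all others, by a log2 fold change of -0.38 (SE 0.0378, limma adjusted p = 2.94e-07) from WT and -0.27 (SE 0.0487, limma adjusted p = 0.000597) from del-56.

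No gamma member was called for del-56 against WT by limma, edgeR or DESeq2, while 9, 8 and 5 had an unadjusted p under 0.05, all lower. The deposited log2 fold changes of the gamma members ran from -0.12 to 0.043. Of all genes tested by limma in that comparison, 19.2% were called higher and 20.5% lower. The number of protocadherins called lower in del-56 went from 2 to 17, of which 13 were gamma, without del-56 replicate 1, and to 11, of which 9 were gamma, after rescaling to the same total. Without WT replicate 3 it was 0. For del-4 against del-56, all 22 gamma members and *PCDHB2* were called lower and *PCDHB4* was called higher, where 9% of all genes tested were called lower and 10.9% higher.

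**Figure D2:**
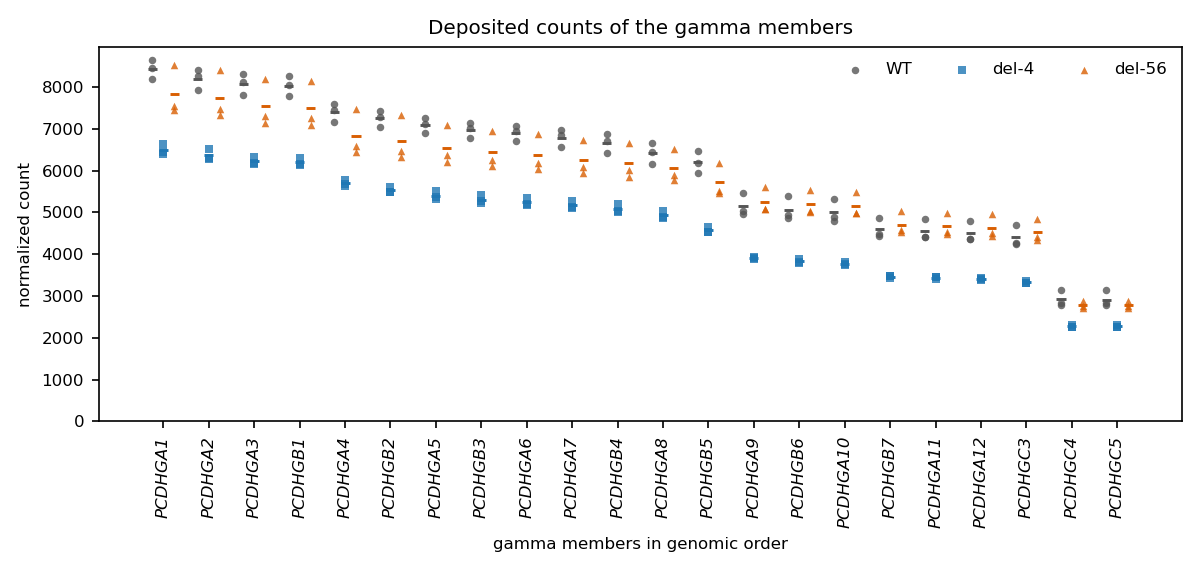
Deposited normalized count (linear axis from 0) of each gamma member in genomic order, with points for libraries and bars for means of 3. The counts fall from *PCDHGA1* to *PCDHGC5* in every clone, and the mean of del-4 lies below that of WT at each member.

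To separate the members, the count of the next member was subtracted from that of each member. The remainder, here called a segment, holds the reads between 1 start and the next. A read spliced to the constant exons is also counted in the later members, whose spans hold those exons, so the subtraction removes it. A segment thus holds the reads that lie between 1 start and the next, and the last segment, that of *PCDHGC5*, also holds the constant exons. Segments do not separate members whose exons run past the next start, which are 2 of 22 gamma members (*PCDHGB4* and *PCDHGC3*) and 3 of 15 alpha members. Of the 4725 exon bases of *PCDHGB4* outside the constant exons, 2266 lie in the *PCDHGA8* segment. Fitting segments was chosen after seeing the data. With segments in place of these counts, 20.5% of all genes were called higher and 20.1% lower for del-4 over WT, 19.2% and 20.5% for del-56 over WT, and 10.9% and 8.91% between the deletion clones.

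Of the 22 gamma segments, 1 was called higher and 9 lower for del-4, and 3 higher and 4 lower for del-56. *PCDHGB5* had 1013, 1149 and 980.4 normalized counts with WT, 638, 659 and 725 with del-4, and 577, 382 and 438 with del-56. The 3 clones did not overlap. Against WT the log2 fold change was -0.63 (SE 0.0892, limma adjusted p = 1.59e-05) for del-4 and -1.19 (SE 0.129, limma adjusted p = 2.32e-06) for del-56. *PCDHGB5* held 12.4% ± 1.01 of gamma locus reads in WT, 10.4% ± 0.522 with del-4 and 5.89% ± 0.824 with del-56 (SD, n = 3 each).

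The *PCDHGA1* segment, the first of the family, was also lower in both deletion clones. It had 138, 131 and 118 normalized counts with del-4, 117, 111 and 87.3 with del-56, and 221, 208 and 261 with WT. No deletion library reached the WT range, and the log2 fold changes were -0.83 (SE 0.175, limma adjusted p = 0.00091) and -1.13 (SE 0.192, limma adjusted p = 0.00021). The *PCDHGB4* segment had 171, 122 and 166 normalized counts with del-4, 152, 75.3 and 126 with del-56, and 220, 265 and 254 with WT. Every deletion library lay below WT here too, with log2 fold changes of -0.70 (limma adjusted p = 0.00421) and -1.11 (limma adjusted p = 0.00108). The bases before the starts of *PCDHGB4* and *PCDHGB5* share long identical runs. How reads with several alignments were counted is not given, so the segments of these genes may share reads.

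The segment that starts at *PCDHGA8* was higher in both deletion clones, but it also holds the later exon bases of *PCDHGB4*, and the RefSeq start of *PCDHGA8* lies 2476 bases into it. It had 320, 355 and 388 normalized counts with del-4, 332, 308 and 381 with del-56, and 181, 276 and 227 with WT. All deletion libraries lay above the WT libraries, with log2 fold changes of 0.65 (SE 0.161, limma adjusted p = 0.00341) for del-4 and 0.59 (SE 0.167, limma adjusted p = 0.00991) for del-56. Summed, the reads of the *PCDHGB4* and *PCDHGA8* segments were 491, 476 and 553 normalized counts with del-4, 484, 384 and 507 with del-56, and 401, 541 and 481 with WT, and all 3 clones overlapped. Which of the 2 genes the opposite differences of these segments belong to was not tested. The segment's del-56 call was lost without del-56 replicate 3 (limma adjusted p = 0.0538) and without WT replicate 1 (limma adjusted p = 0.0506).

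*PCDHGC3*, a C-type gamma isoform, separated the deletion clones, and its segment had the highest count of all but the last. It held 1061, 999 and 1098 normalized counts with del-4, 1943, 1583 and 1699 with del-56, and 1555, 1438 and 1460.2 with WT. Every del-4 library lay below WT and every del-56 library above it. The log2 fold change from WT was -0.50 (SE 0.0696, limma adjusted p = 1.56e-05) for del-4 and 0.23 (SE 0.0754, limma adjusted p = 0.0252) for del-56. Between the deletion clones it was -0.72 (SE 0.0795, limma adjusted p = 3.26e-06). The del-56 call against WT was lost after rescaling to the same total (limma adjusted p = 0.0524) and without del-56 replicate 1 (0.119), del-56 replicate 3 (0.0514), WT replicate 2 (0.0959) or WT replicate 3 (0.0852). *PCDHGC3* held 17.6% ± 0.534 of gamma locus reads in WT, 16.2% ± 0.523 with del-4 and 22.2% ± 0.799 with del-56 (SD, n = 3 each).

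**Figure D3:**
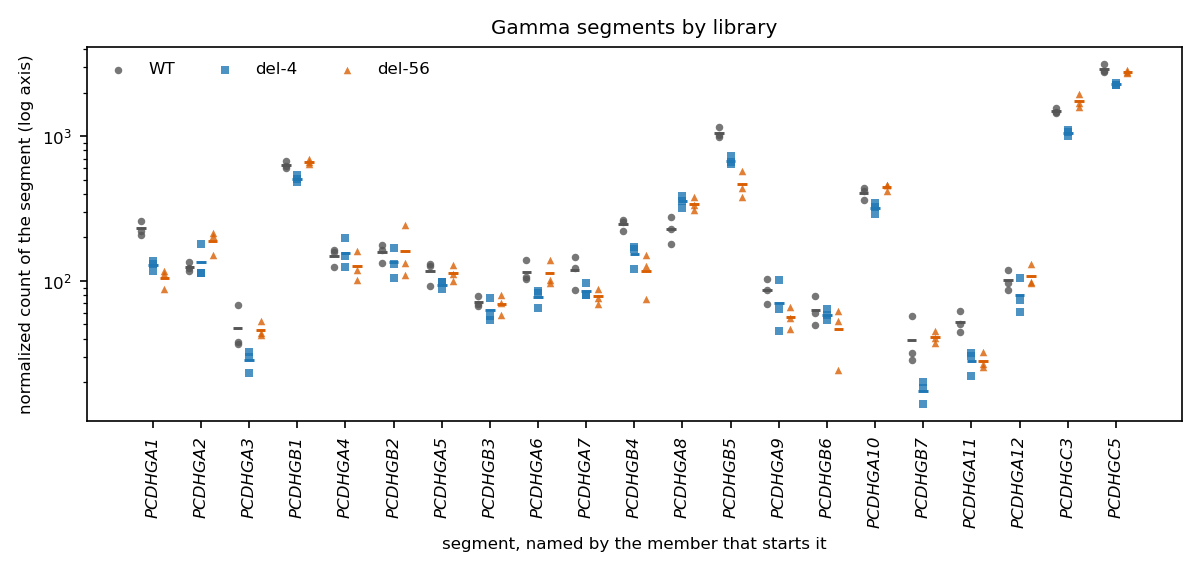
Normalized count of each gamma segment (log axis), with points for libraries and bars for means of 3. *PCDHGC4*, with at most 13.2 counts in a library, is not drawn. The *PCDHGB5*, *PCDHGA1* and *PCDHGB4* segments are lower and the *PCDHGA8* segment, which holds later *PCDHGB4* exon bases, is higher in both deletion clones, and *PCDHGC3* lies below WT with del-4 and above WT with del-56.

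The last segment, from the start of *PCDHGC5* to the end of the constant exons, had 2256, 2312 and 2260 normalized counts with del-4, 2879.6, 2758 and 2709 with del-56, and 3147, 2822 and 2778 with WT. The del-4 libraries lay below all others, with a log2 fold change from WT of -0.36 (SE 0.0552, limma adjusted p = 4.7e-05), and those of del-56 overlapped WT (-0.066, limma adjusted p = 0.394).

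Smaller or less steady differences were found in 5 more segments. *PCDHGB1* had 481, 504 and 540.4 normalized counts with del-4, 667, 638 and 691 with del-56, and 668, 598 and 617 with WT, and its lower value in del-4 (-0.30, limma adjusted p = 0.0215) was lost without del-4 replicate 1 (0.0744), WT replicate 1 (0.0786) or WT replicate 3 (0.0515). *PCDHGA10* had 323, 288 and 345 normalized counts with del-4, 461, 459 and 419.6 with del-56, and 438, 415 and 359 with WT (-0.34, limma adjusted p = 0.0442). *PCDHGB7* had 18.2, 19.9 and 14.1 normalized counts with del-4, 37.2, 45.2 and 40.0 with del-56, and 31.9, 56.9 and 28.3 with WT (-1.07, limma adjusted p = 0.0442). The del-4 libraries lay below WT and del-56 in each of these, and the calls of *PCDHGA10* and *PCDHGB7* were each lost under 7 of 16 alternatives.

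*PCDHGA11* had 22.1, 31.9 and 30.1 normalized counts with del-4, 26.7, 32.1 and 25.5 with del-56, and 50.3, 61.8 and 44.3 with WT. No deletion library reached WT, but the calls (-0.87, limma adjusted p = 0.0443, and -0.86, limma adjusted p = 0.0461) were lost under 11 of 16 alternatives each, among them leaving out any 1 library. *PCDHGA2* had 215, 204 and 150 normalized counts with del-56, 113, 113 and 179 with del-4, and 118, 135 and 123 with WT. Its del-56 libraries lay above WT (0.58, limma adjusted p = 0.0258), a call lost without del-56 replicate 1 (0.0983), del-56 replicate 2 (0.0927), WT replicate 1 (0.0684) or WT replicate 3 (0.0673).

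**Figure D4:**
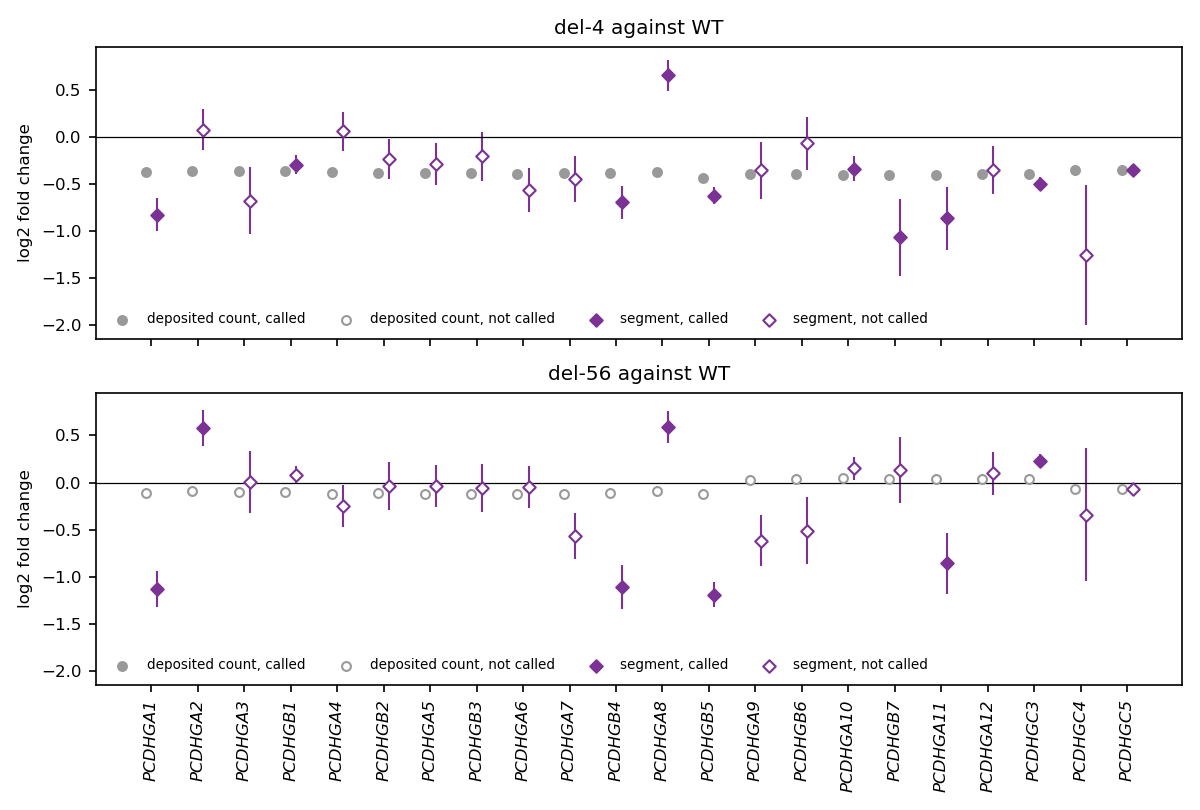
Log2 fold change against WT of each gamma member by its deposited count (circles) and by its segment (diamonds), with bars for the SE, filled where called at an adjusted p under 0.05. The deposited values lie between -0.44 and -0.36 for del-4, and the segments between -1.26 (*PCDHGC4*, not called) and 0.65 (*PCDHGA8*).

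The 12 gamma segments not called in del-4 had limma adjusted p from 0.0612 (*PCDHGA6*) to 0.869 (*PCDHGB6*). The median log2 fold change of the 22 gamma segments was -0.36 for del-4, where that of all genes was -0.0028. For del-56 it was -0.051, turning to 0.032 under quantile normalization, where that of all genes was -0.001 and 0.015. Per kilobase of exon, *PCDHGC3*, *PCDHGB5* and *PCDHGB1* had mean segment counts of 521, 386 and 242 with WT, 369.5, 248.7 and 196 with del-4 and 611, 172 and 256 with del-56.

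Alpha members had few reads. From the start of *PCDHA1* to the end of the alpha locus the normalized count was 99.3 ± 4.58 with del-4, 79.2 ± 23.4 with del-56 and 80.2 ± 15.1 with WT (SD, n = 3 each), and the ranges overlapped. The last alpha segment, that of *PCDHAC2*, also holds the alpha constant exons. Its means were 4.54 with del-4, 11.2 with del-56 and 6.44 with WT. The last gamma segment held 35.0%, 35.5% and 34.5% of gamma locus reads in the same order. Whether the alpha reads come from spliced alpha transcripts was not tested. Of all genes tested by limma, 20.5% were called higher and 20.2% lower for del-4, and 19.2% and 20.5% for del-56. Between the deletion clones 10.9% were called higher and 9% lower. On the deposited counts no alpha member was called in any comparison by limma, edgeR or DESeq2. Against WT 0 had an unadjusted p under 0.05, and between the deletion clones 2 did (*PCDHA2* and *PCDHA3*, higher in del-4, limma). The median log2 fold change of the 15 alpha members was 0.022 for del-4, where that of all genes was -0.0028. After rescaling to the same total these medians were -0.046 and -0.073. For del-56 the alpha median was -0.16, where that of all genes was -0.0011.

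By segment, 10 alpha members passed the filter on low counts for del-4 and 12 for del-56. The *PCDHA3* segment, which also holds 562 exon bases of *PCDHA2*, had 49.9, 29.9 and 40.2 normalized counts with del-4, 28.6, 18.1 and 9.7 with del-56, and 17.4, 13.5 and 23.6 with WT. The del-4 libraries lay above the others, and the log2 fold change from WT was 1.10 (SE 0.395, limma adjusted p = 0.0335). The call was lost in the fit of all 9 libraries (0.0544), by edgeR (0.0547), and without del-4 replicate 1 (0.137), del-4 replicate 3 (0.0861), WT replicate 1 (0.0624) or WT replicate 2 (0.108).

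The libraries were strand-specific, but whether strand was used in counting is not given in the sources used here. Annotated genes on the opposite strand overlap 15 of 15 alpha, 15 of 16 beta and 18 of 22 gamma members, and *PCDHB15*, *PCDHGA12*, *PCDHGC3*, *PCDHGC4* and *PCDHGC5* have none.

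Genes known to act on the cluster were called in both directions, as were all genes tested (20.5% higher and 20.2% lower for del-4, 19.2% and 20.5% for del-56). Of the insulator and cohesin genes, 2 of 14 tested were called higher and 4 lower for del-4, and 4 of 15 higher and 4 lower for del-56. Those called in 1 direction in both clones (log2 fold change for del-4, then for del-56) were the cohesin regulators *PDS5A* (-0.23, -0.20) and *PDS5B* (-0.18, -0.11), the cohesin subunits *STAG1* (0.14, 0.18) and *STAG2* (0.18, 0.10), and the cohesin acetyltransferase *ESCO2* (-0.11, -0.14). *CTCF*, named after its values were seen, was at -0.10 (limma adjusted p = 0.0351) and -0.076 (limma adjusted p = 0.116). It lies on chromosome 16, where the median of the genes tested was -0.34 for del-4 and -0.31 for del-56. Whether these differences take part in those of the protocadherins was not tested.

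Of 15 DNA methylation and silencing genes, 4 were called higher and 6 lower for del-4, and 3 higher and 5 lower for del-56, beside the same shares of all genes (20.5%, 20.2%, 19.2% and 20.5%). Higher in both (in the same order) were the de novo methyltransferase *DNMT3B* (0.25, 0.43) and the histone methyltransferase *EHMT2* (0.15, 0.17). Lower in both were the methylcytosine dioxygenases *TET2* (-0.24, -0.23) and *TET3* (-0.16, -0.15) and the histone methyltransferase *EZH2* (-0.14, -0.25). *DNMT3A*, named after its values were seen, had 3204 ± 79.7 normalized counts with del-4, 1771 ± 82.5 with del-56 and 2441 ± 125 with WT (SD, n = 3 each), and the deletion clones differed by 0.86 (limma adjusted p = 3.29e-09). Of 10 genes for cleavage and intracellular partners of protocadherins, 4 were called higher and 1 lower for del-4, and 2 higher for del-56, with the focal adhesion kinase *PTK2* (0.18, 0.32) and the gamma-secretase subunit *PSEN2* (0.16, 0.14) higher in both.

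Of the non-clustered protocadherins, 2 of 11 tested were called higher and 2 lower for del-4, and 2 of 10 higher and 1 lower for del-56. The shares of all genes were 20.5% higher and 20.2% lower for del-4, and 19.2% and 20.5% for del-56. *PCDH20* had 4933 ± 221 normalized counts with del-4, 1140.5 ± 74.1 with del-56 and 433 ± 13.2 with WT (SD, n = 3 each), with log2 fold changes from WT of 3.51 (limma adjusted p = 4.74e-17) and 1.39 (limma adjusted p = 7.94e-09). *PCDH11X* had 421 ± 24.4, 391 ± 70.9 and 724 ± 72.4, with log2 fold changes of -0.78 and -0.90. *PCDH1*, named after its values were seen, lies after the gamma members at chr5:141853090-141879246 and had 1454 ± 103 normalized counts with del-4, 2016 ± 46.1 with del-56 and 1900.3 ± 86.2 with WT (SD, n = 3 each). It was lower in del-4, by -0.39 from WT (limma adjusted p = 0.000129) and -0.47 from del-56 (limma adjusted p = 4.49e-05), and del-56 was at 0.086 from WT (limma adjusted p = 0.269). *PCDH12*, also near the cluster, was not called.

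Within 2000000 bases on either side, 11 of 52 genes tested were called higher and 10 lower for del-4, and 12 of 55 higher and 6 lower for del-56, with medians of 0.01 and 0.029, where 20.5% and 20.2% of all genes were called for del-4 and 19.2% and 20.5% for del-56. *ZMAT2*, 79450 bases before the cluster, had log2 fold changes of 0.16 and 0.21 (limma adjusted p = 0.00736 and 0.00136). *DIAPH1*, a formin gene on the opposite strand 2039 bases after it, had -0.11 and -0.15 (limma adjusted p = 0.0139 and 0.00491). *TAF7*, a transcription factor subunit gene between the beta and gamma members, named after its values were seen, had 0.02 and 0.0068 (limma adjusted p = 0.681 and 0.903). The neighbours with the highest mean size among those called in 1 direction in both were *SPRY4* (-1.28, -1.14), *RELL2* (-1.05, -0.41), *GNPDA1* (0.33, 0.28), *DNAJC18* (0.28, 0.24), *SLC23A1* (0.18, 0.30) and *HDAC3* (0.23, 0.21).

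**Figure D5:**
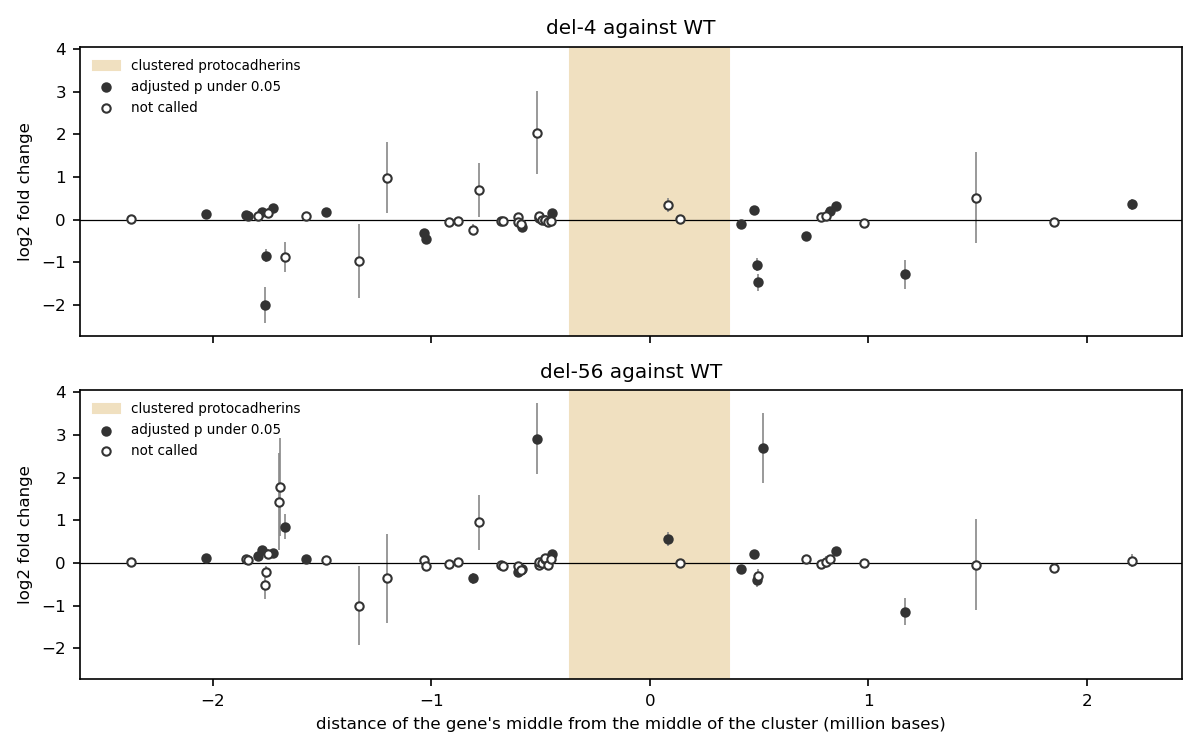
Log2 fold change against WT (bars, SE) of protein-coding genes within 2000000 bases of the cluster, by the distance of the middle of the gene from that of the cluster (shaded), filled where called at an adjusted p under 0.05. Called genes lie above and below 0 on both sides of the cluster.

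The 10 prostate luminal markers were all detected, and summed to 374428 to 380521 normalized counts with del-4, 365689 to 376443 with del-56 and 368488 to 385837 with WT. The 8 neural markers summed to 7255 to 7540 with WT, 14281 to 14968 with del-4 and 16064 to 16449 with del-56. Of these, 3 of 7 tested were called higher and 2 lower for del-4, and 4 of 8 higher for del-56. Among all genes tested, 20.5% were called higher and 20.2% lower for del-4, and 19.2% and 20.5% for del-56. Neural markers called higher in both were *MAP2* (1.49, 1.61), *NEFL* (1.52, 1.61) and *RBFOX3* (1.13, 0.95). *TUBB3* (-0.21, limma adjusted p = 0.00869) and *SYP* (-0.60, limma adjusted p = 0.0358) were the 2 lower for del-4. *MAP2* alone made up 71.8% of the neural sum with del-4, 70.5% with del-56 and 50.4% with WT. In bulk samples, more cells of a type and more RNA per cell cannot be told apart, and the part of these genes in the protocadherin counts was not tested. The 6 stromal markers summed to 1116 to 1205 with WT, 1274 to 1488 with del-4 and 1421 to 1569 with del-56 (*COL1A2* at 0), and the 3 basal markers to at most 64.3 (*KRT5* and *TP63* at 0 with del-56). The 3 endothelial markers summed to 589 to 615 with WT, 288 to 326 with del-4 and 509 to 719 with del-56 (*CDH5* at 0 in all), and the 3 blood markers to 486 to 565 (*CD3E* at 0 in all, *PTPRC* in both deletion clones).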

How the data were processed

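RNA-seq was done on 9 libraries of LNCaP clones, grouped by their titles. The deposited signal values are normalized counts. By their methods, the authors aligned 150 bp read pairs to GRCh38 with STAR (2.71a in the submitters' processing notes) and counted reads per protein-coding gene of GENCODE 38 with BEDTools 2.27.1 multicov. Values divided by the smallest positive value of their library were whole (within 0.001) in 100.0% of cases and were taken as reads, as counts divided by a size factor would be. Of values of 1 to 20 reads, 83.8% were even. Symbols and positions came from GENCODE 44 (19905 of 19984 identifiers matched). Exon bases past a segment's end were counted in GENCODE 44. Segment boundaries are those of the authors' annotation, and their printed positions those of GENCODE 44.

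Clones were compared in pairs with limma 3.58.1 (R 4.3.3, variance trend) on log2(normalized count + 1), keeping genes whose mean in the 6 libraries compared reached 1, with Benjamini-Hochberg adjustment. Fold changes on this scale understate those of low genes. Alternatives were other pseudocounts (0.5, 5), other filters (none, 10), scaling to equal totals, quantile normalization, a joint fit of the 9 libraries, a replicate block, edgeR 4.0.16 and DESeq2 1.42.0 on the recovered reads, an unadjusted p under 0.05 with a 2-fold change, and omission of each library. The fit was tested on simulated data. Summaries were made in Python 3.11.15.

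Replicates are cultures of 1 clone, so p-values measure the spread between cultures. Members, gene lists and tests were chosen with earlier results of these data known. Values per library are given for members called against WT. Genes of other lists are named when called in 1 direction in both deletion clones, up to 6 per list by mean absolute log2 fold change, with the nearest gene on each side of the cluster. Single genes of these lists that meet the rule may not all be reported here.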

Additional observations from a re-analysis of the deposited data

Results flagged for a closer look

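The results listed here are those in which the deletion clones differed from each other in a direct test (limma, del-4 against del-56, adjusted p under 0.05). Among deposited counts the log2 fold change was -0.39 for *PCDHB2*, 1.45 for *PCDHB4* and -0.27 for *PCDHGA1*, whose count takes in the whole gamma locus and stands for the nested gamma counts. Among gamma segments it was -0.39 for *PCDHGB1*, 0.55 for *PCDHGB5*, -0.49 for *PCDHGA10*, -1.19 for *PCDHGB7*, -0.72 for *PCDHGC3* and -0.29 for *PCDHGC5*. The call of the *PCDHGB7* segment was lost under 6 of 16 alternatives, by edgeR and without del-4 replicate 1 or 3 or any 1 del-56 library (adjusted p up to 0.119). Groups of 3 libraries were not tested for outlying libraries.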

How the results depend on the processing

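No called clustered protocadherin or segment changed direction under the alternatives run. Over all of these members, segments and alternatives a call was lost 135 times. Single genes of the other lists were not followed in this way. On deposited counts, 1 member was called higher and 22 lower for del-4 against WT, 3 and 2 for del-56 against WT, and 1 and 23 between the deletion clones. With an unadjusted p under 0.05 and a 2-fold change as the rule instead, the counts were 0 and 0, 1 and 2, and 1 and 1. These take in members not called by adjusted p in the same comparison. They were *PCDHB10*, lower for del-56 against WT (limma adjusted p = 0.0671), and *PCDHB6*, lower for del-4 against del-56 (limma adjusted p = 0.11). Counting alpha and gamma by segment gave 3 and 9, 6 and 6, and 2 and 6. Quantile normalization gave 2 higher for del-4. For del-56, 11 were lower after rescaling to the same total and 5 in 1 fit of all 9 libraries. Leaving out 1 library gave 0 (WT replicate 3) to 17 (del-56 replicate 1) lower for del-56, and 1 to 2 higher (2 without replicate 2 of either clone) between the deletion clones.

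For the alpha and gamma segments alone, the counts were 2 and 9, 3 and 4, and 1 and 5. The higher count for del-4 was 1 in the fit of all 9 libraries, by edgeR and under the 2-fold rule. That rule gave 1 lower for del-4, 1 higher for del-56 and 2 lower between the deletion clones. The 1 higher for del-56 and 1 of the 2 lower were the *PCDHA1* segment, not called by adjusted p (limma, 0.0647 and 0.111). Leaving out 1 library gave 1 to 2 higher and 5 (del-4 replicate 1) to 7 lower for del-4, 1 to 2 higher for del-56 and 1 to 2 higher between the deletion clones.

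Of the 108 genes of the 4 lists and the neighbours, not all were tested. Among them 23 were higher and 22 lower for del-4, 23 and 16 for del-56, and 8 and 12 between the deletion clones. The shares of all genes tested were 20.5% and 20.2%, 19.2% and 20.5%, and 10.9% and 9%. The 2-fold rule, used instead of the adjusted p, gave 4 and 4, 4 and 2, and 2 and 5. Rescaling to the same total gave 10 higher for del-4, and 5 higher and 21 lower between the deletion clones. Leaving out 1 library gave 15 (del-4 replicate 3 or WT replicate 2) to 24 higher for del-4, 15 to 21 higher and 10 to 17 lower for del-56 (both lowest without WT replicate 2), and 5 to 8 higher (lowest without del-4 replicate 3 or del-56 replicate 2) and 6 (del-4 replicate 3) to 15 lower between the deletion clones. The cause was not tested in any of these.

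Replicate numbers are shared between groups. Across genes, deviations of libraries with the same number correlated at r from -0.0528 to 0.0632, and those with different numbers from -0.0535 to 0.0442. Same-number r was positive in every pair with del-4 (0.0231 to 0.0632) and negative between del-56 and WT (-0.0528 to -0.000474). Values this small cannot decide whether a number marks a shared round of culture or preparation. With a replicate block, the deposited counts stayed at 1 and 22, 3 and 2, and 1 and 23, and the segment counts were 2 and 7, 3 and 3, and 1 and 5, with the calls of the *PCDHGA10* and *PCDHGA11* segments lost. For the lists and neighbours they were 23 and 22, 18 and 13, and 7 and 13. Depth limits the alpha members and *PCDHB1*, whose counts allow no call of small differences.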
